A study of Mus musculus with 12 samples.

Results

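Glycolysis and its exits, to lactate and into the mitochondrion, were followed here through 35 genes out of the 16414 in the deposited table of 3T3-L1 cells. The genes were listed by their textbook role, with earlier results of these data known: the enzymes of the glycolytic steps with their isozymes, lactate dehydrogenase, the lactate and monocarboxylate carriers, the enzymes that set fructose 2,6-bisphosphate and 2,3-bisphosphoglycerate, the mitochondrial pyruvate carrier, and pyruvate dehydrogenase with its kinases and 1 phosphatase. All 35 were found by symbol and all 35 passed the filter on low counts, together with 11703 genes in all.

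3T3-L1 is a mouse embryonic fibroblast line that can be driven to form adipocytes. Fibroblasts were transfected for 48 h, either with a miR-335-5p mimic at 20 nM (miR-335-5p cells below) or with a scrambled, non-targeting (NT) mimic as control (NT cells below), and were then differentiated. RNA was sequenced at 2 stages of differentiation in 4 groups of 3 libraries: miR-335-5p mimic at day 6, NT mimic at day 6, miR-335-5p mimic at day 3 and NT mimic at day 3. Every group received insulin (200 nM), dexamethasone (250 nM), 3-isobutyl-1-methylxanthine (0.5 mM) and rosiglitazone for the first 3 days. The day 6 groups were then kept for 2 days with insulin alone and for 1 day without it, so that a difference between the days covers both time and the loss of the induction agents, and the 2 cannot be told apart. The labels call the day 3 cells preadipocytes and the day 6 cells adipocytes. They do not say whether the 3 replicates of a group were separate cultures, so a p-value here reflects the spread among these libraries, which may be technical.

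In glycolysis, hexokinase traps glucose in the cell, phosphofructokinase commits it, and pyruvate kinase releases pyruvate. Pyruvate is either reduced to lactate, which leaves through monocarboxylate carriers, or is carried into the mitochondrion and turned into acetyl-CoA by pyruvate dehydrogenase, which its kinases switch off and its phosphatases switch on. In fat cells this acetyl-CoA feeds fatty acid synthesis, and glycolysis also supplies the glycerol backbone of triglycerides.

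The agent tested was mature miR-335-5p, a 23-base RNA encoded on chromosome 6 at chr6:30741314-30741336 on the plus strand (GRCm38.p6, RefSeq). It is shown because its seed, bases 2 to 8 in capitals, is what defines a matching site in a messenger RNA.
miR-335-5p: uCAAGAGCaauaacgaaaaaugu
The longest annotated 3′ UTR of each member (GENCODE, GRCm38) was searched on the sense strand for GCTCTTG (7mer-m8), CTCTTGA (7mer-A1) and their union GCTCTTGA (8mer). Of the 35 members, 6 (17.1%) held 1 such match each, against 2765 of 11565 tested genes with a UTR (23.9%). Only Mpc1, a subunit of the mitochondrial pyruvate carrier, held the 8mer, which 3.7% of the tested genes have. The 6 stretches follow because they are the places in these transcripts where the mimic has a seed match, with the match in capitals and the first base of the match counted from the start of the UTR.
Mpc1 8mer at base 15 (chr17:8297167-8297194, plus strand): acaaggaccaGCTCTTGAaagagacagt
Gapdh 7mer-A1 at base 145 (chr6:125161871-125161897, minus strand): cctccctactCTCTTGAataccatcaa
Pdk1 7mer-A1 at base 1443 (chr2:71901557-71901583, plus strand): aaacatgtcaCTCTTGAcatgttttat
Pdk3 7mer-m8 at base 268 (chrX:93764941-93764967, minus strand): acctcctagcGCTCTTGtaccctatat
Tigar 7mer-m8 at base 481 (chr6:127087377-127087403, minus strand): ggagaaactaGCTCTTGggatttatta
Slc16a3 7mer-m8 at base 109 (chr11:120958231-120958257, plus strand): catcggctcaGCTCTTGgctgcctggt
A match is a description of letters and not a shown site of action.

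The libraries held between 17.69 and 18.94 (x 1e6) estimated counts on 12729 to 13644 genes, so that 1 CPM (counts scaled to a common library total) stands for about 18.4 counts. Levels below are CPM after TMM scaling, a correction for differences in library composition. A gene is called where its adjusted p in edgeR's quasi-likelihood test over all tested genes is below 0.01. Libraries with replicate number 1 stood apart from numbers 2 and 3, as described further on. Adipocyte markers were high at both stages, with summed levels of 10400 to 15000 CPM in the day 6 libraries and 8810 to 11700 CPM in the day 3 libraries. The preadipocyte and fibroblast markers summed to 14100 to 21600 CPM at day 6 and to 4320 to 6090 CPM at day 3, and 8 of the 11 tested were called higher at day 6 under either mimic. Of the 11 adipocyte markers tested, 4 were called higher at day 6 under either mimic (Adipoq, Cfd, Lpl and Slc2a4), while Cidec was called lower under both and Retn in NT cells. Adipoq, the adipokine adiponectin, averaged 1745 CPM in miR-335-5p cells at day 6 and 110 CPM at day 3, and 1677 CPM in NT cells at day 6 and 116 CPM at day 3. The 2 marker lists thus both had most of their calls on the higher side at day 6. Of all tested genes, 18.2% were called higher and 16.5% lower in miR-335-5p cells, and 18.8% and 16.7% in NT cells. Erythroid markers stayed at or below 0.06 CPM, endothelial markers at or below 1.72 CPM and muscle markers at or below 1.53 CPM in every library, whereas macrophage markers summed to 4.38 to 12.5 CPM at day 6 and 0.48 to 2.27 CPM at day 3, and epithelial markers to 19.6 to 55.4 CPM at day 6 and 1.94 to 9.04 CPM at day 3. Among the macrophage markers 6 of 8, and among the epithelial markers 4 of 7, stayed under 1 CPM in every library, so each sum rests on few genes. The part of these shifts in the results below was not tested. In bulk RNA, fewer cells of a type and less RNA per cell cannot be told apart.

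Between day 6 and day 3 the pathway moved mostly down, and unevenly. In miR-335-5p cells 2 members rose and 12 fell (40% of 35 called, where 34.7% of all tested genes were), and in NT cells 2 rose and 14 fell (45.7%, where 35.6% of all tested genes were). The share called in total was thus somewhat above that of all genes. By direction, 34.3% of the members fell in miR-335-5p cells and 40% in NT cells, against 16.5% and 16.7% of all tested genes, while 5.71% of the members rose under either mimic, against 18.2% and 18.8%. The median log2 fold change of the 35 members was -0.29 in miR-335-5p cells and -0.33 in NT cells, beside 0.02 and 0.03 over all genes. The same 14 members were called in the same direction under both mimics. Counted by libraries that do not overlap, 4 members lay higher and 17 lower at day 6 in miR-335-5p cells (29% and 27.5% of all tested genes), and 3 higher and 17 lower in NT cells (30.8% and 28.8%). The 2 comparisons share no library. Libraries of equal replicate number and day nevertheless deviated alike from their group means across the mimics (correlations of 0.485 to 0.825). The comparisons are thus not independent of each other, and they are given side by side throughout.

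**Figure D1:**
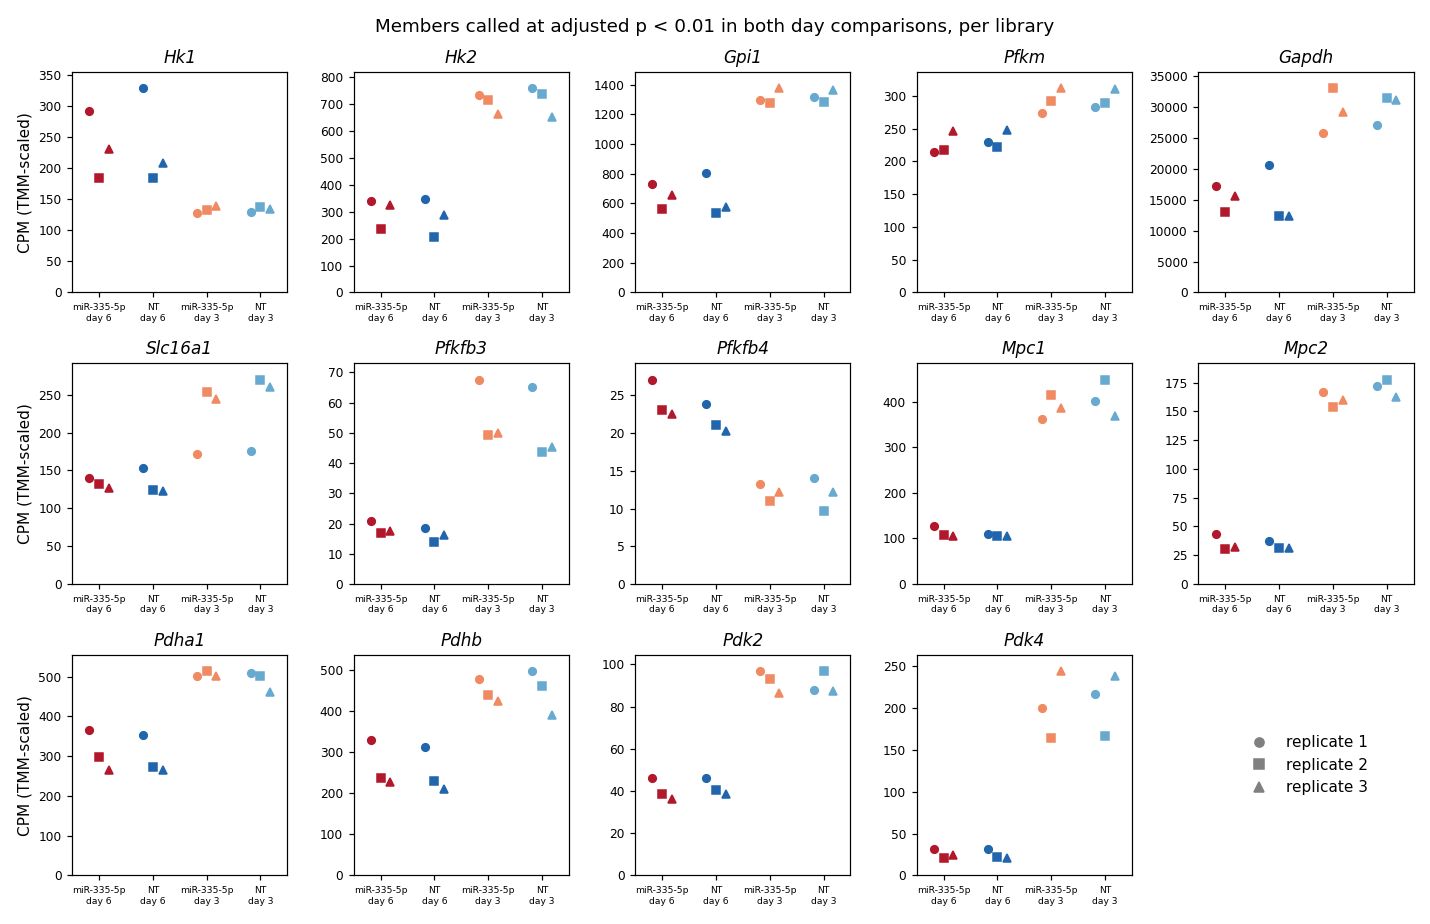
Level in CPM (TMM-scaled, linear axis from 0) of the 14 members called in both day comparisons, with 1 point per library, groups from left to right miR-335-5p day 6, NT day 6, miR-335-5p day 3 and NT day 3, and the symbol giving the replicate number. In every panel the 6 day 6 libraries lie on one side of the 6 day 3 libraries: above them for Hk1 and Pfkfb4, below them for the other 12 members.

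The 2 hexokinases, which start the pathway, moved in opposite directions. Hexokinase 2 (Hk2), the insulin-responsive isozyme, had 341, 236 and 324 CPM in miR-335-5p cells at day 6, against 735, 716 and 661 CPM at day 3. In NT cells the values were 349, 206 and 289 CPM at day 6 and 758, 736 and 651 CPM at day 3. Every day 6 library lay below every day 3 library. Hk2 fell, with a log2 fold change of -1.23 in miR-335-5p cells (95% interval -1.63 to -0.83, adjusted p = 0.000213) and -1.35 in NT cells (-1.75 to -0.95, adjusted p = 0.000112). Hexokinase 1 (Hk1), the widely expressed isozyme, did the opposite. It had 292, 184 and 231 CPM in miR-335-5p cells at day 6, against 127, 133 and 140 CPM at day 3. NT cells gave 329, 184 and 209 CPM at day 6 and 130, 137 and 134 CPM at day 3. The days did not overlap, and the log2 fold change was 0.82 in miR-335-5p cells (adjusted p = 0.00601) and 0.85 in NT cells (adjusted p = 0.00493). Corrected for transcript length, Hk2 stood at 54.5 and Hk1 at 61.2 CPM per kilobase in miR-335-5p cells at day 6, where Hk2 had 128 and Hk1 34.7 CPM per kilobase at day 3.

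In upper glycolysis 2 of 7 members fell. Glucose-6-phosphate isomerase (Gpi1) had 734, 560 and 658 CPM in miR-335-5p cells at day 6, against 1298, 1277 and 1375 CPM at day 3. The NT libraries held 805, 536 and 575 CPM at day 6 and 1319, 1282 and 1363 CPM at day 3. Its level was thus about halved, by 2.02-fold in miR-335-5p cells (adjusted p = 0.000187) and 2.07-fold in NT cells (adjusted p = 0.000148), with no overlap. Among the phosphofructokinases the muscle type Pfkm changed least of all called members. It had 215, 217 and 247 CPM in miR-335-5p cells at day 6 and 274, 292 and 312 CPM at day 3, and in NT cells 230, 222 and 248 CPM at day 6 and 283, 289 and 311 CPM at day 3. The fall was small but clear of overlap, by 0.37 on the log2 scale (adjusted p = 0.00382) and 0.33 (adjusted p = 0.00716). The liver type Pfkl had the highest level of the 3 per kilobase and was not called (log2 fold change 0.02 in miR-335-5p cells and -0.03 in NT cells), nor was the platelet type Pfkp (-0.03 and -0.17). Triose phosphate isomerase (Tpi1) was not called either (-0.07 and -0.05).

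Fructose-bisphosphate aldolase A (Aldoa) did not pass the threshold, although its day 6 libraries lay below its day 3 libraries under both mimics (log2 fold change -0.29, adjusted p = 0.0563 in miR-335-5p cells, and -0.41, adjusted p = 0.0114 in NT cells). With the replicate number as a block it was called in both (adjusted p = 0.00655 and 0.00062). Aldolase C (Aldoc), the brain isozyme, was close to absent at day 3, with 2, 0 and 0 counts with each mimic. At day 6 it reached 59, 23 and 4 counts in miR-335-5p cells and 45, 5 and 2 counts in NT cells. Aldoc was not called without the block (adjusted p = 0.0217 and 0.0499), and with the block the adjusted p was 2.44e-05 and 0.000229. Every library with more than 2 counts of it was from day 6, so it passed the filter only through the day at which it was high. Its p is therefore no support for a rise, and in NT cells its CPM overlapped between the days.

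Lower glycolysis held the most abundant transcripts. Glyceraldehyde-3-phosphate dehydrogenase (Gapdh), which makes the NADH that lactate dehydrogenase later uses, took 41 to 47.1% of the members' counts at day 6 and 51.3 to 55.2% at day 3. It had 17298, 12957 and 15684 CPM in miR-335-5p cells at day 6, against 25793, 33058 and 29127 CPM at day 3. In NT cells the values were 20644, 12329 and 12304 CPM at day 6 and 27072, 31525 and 31103 CPM at day 3. Gapdh, often used as a reference gene, fell 1.92-fold in miR-335-5p cells (adjusted p = 0.00259) and 1.98-fold in NT cells (adjusted p = 0.00188). Annotated pseudogenes of Gapdh could share its reads, and how such reads were assigned is not given in the sources used here.

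Phosphoglycerate kinase (Pgk1) and phosphoglycerate mutase (Pgam1), the 2 steps after Gapdh, passed the threshold in NT cells and missed it in miR-335-5p cells. Pgk1 had 5071, 4345 and 5076 CPM in miR-335-5p cells at day 6 and 5683, 6515 and 7057 CPM at day 3, and in NT cells 5304, 3892 and 4752 CPM at day 6 and 6217, 6978 and 6706 CPM at day 3. Pgam1 had 1991, 1487 and 1697 CPM in miR-335-5p cells at day 6 and 2156, 2840 and 2696 CPM at day 3, and in NT cells 2054, 1313 and 1471 CPM at day 6 and 2366, 2698 and 2682 CPM at day 3. In both genes the days did not overlap under either mimic. Pgk1 fell in NT cells (log2 fold change -0.51, adjusted p = 0.00726) and had -0.41 in miR-335-5p cells (adjusted p = 0.0229). Pgam1 likewise fell in NT cells (-0.68, adjusted p = 0.00694) and had -0.57 in miR-335-5p cells (adjusted p = 0.0173). The test of the difference between the 2 day effects, which is also that of the mimic effects, did not call either gene (edgeR quasi-likelihood test, adjusted p = 1 for both), and with the replicate block both were called in miR-335-5p cells as well (adjusted p = 0.00716 and 0.00753).

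The last steps to pyruvate lay close to the threshold. Pyruvate kinase M (Pkm) had a log2 fold change of -0.54 in miR-335-5p cells (adjusted p = 0.0184) and -0.60 in NT cells (adjusted p = 0.0102), and enolase 1 (Eno1) had -0.70 (adjusted p = 0.04) and -0.81 (adjusted p = 0.0208). Neither overlapped between the days, and both were called with the replicate block, Pkm at adjusted p = 0.00437 and 0.00204 and Eno1 at 0.000911 and 0.000278. The neuronal and muscle enolases Eno2 and Eno3 were low, at 9.29 and 2.72 CPM per kilobase in miR-335-5p cells at day 6 beside 209 CPM per kilobase for Eno1, and were not called.

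**Figure D2:**
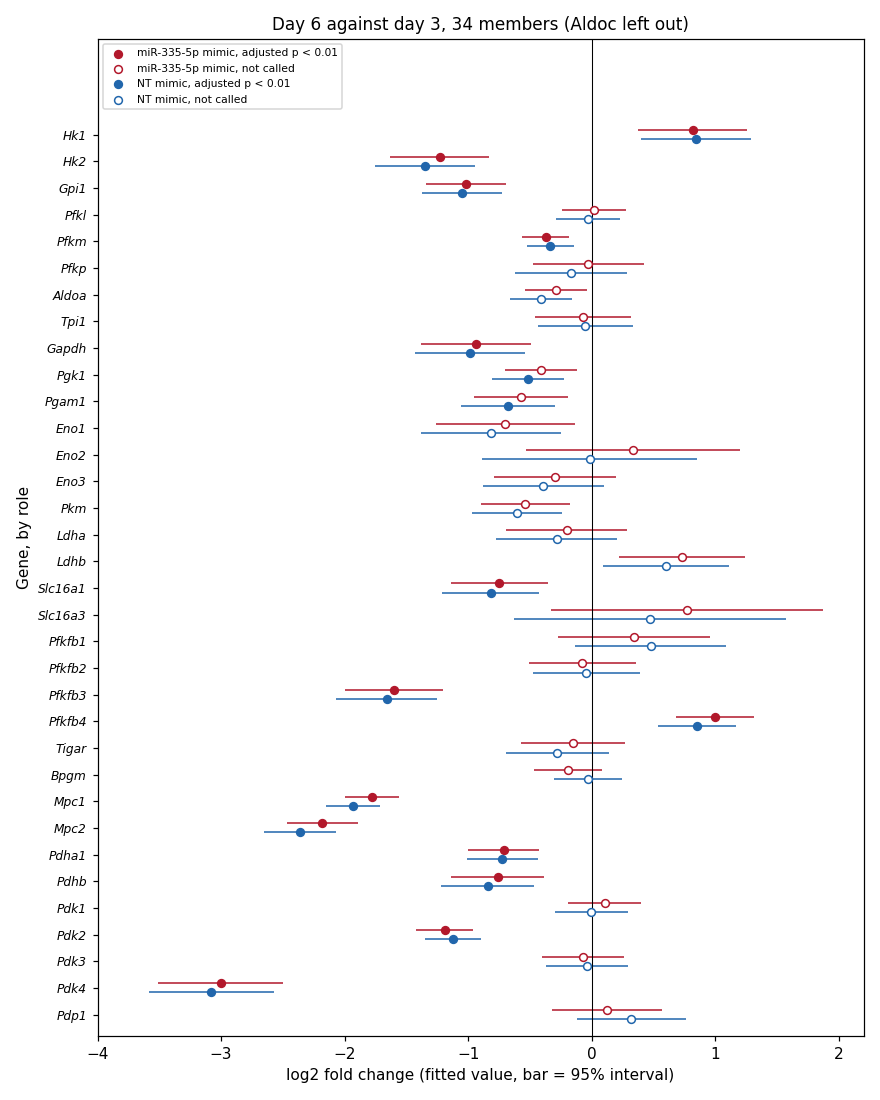
Fitted log2 fold change of day 6 over day 3 for 34 members in order of their role, upper red marks for the miR-335-5p mimic and lower blue marks for the NT mimic, with 95% intervals and filled marks for adjusted p below 0.01. Pdk4, Mpc2, Mpc1 and Pfkfb3 lie farthest to the left, Hk1 and Pfkfb4 are the filled marks to the right of 0, and Aldoc is left out because it had 0 counts in most day 3 libraries.

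Lactate metabolism gave 1 call among its 4 genes. Monocarboxylate transporter 1 (Slc16a1), a carrier of lactate and pyruvate across the plasma membrane, had 141, 132 and 126 CPM in miR-335-5p cells at day 6, against 172, 254 and 244 CPM at day 3. NT cells gave 154, 124 and 122 CPM at day 6 and 176, 270 and 260 CPM at day 3. It fell by 0.75 on the log2 scale in miR-335-5p cells (adjusted p = 0.00473) and by 0.82 in NT cells (adjusted p = 0.00272). The lactate exporter of glycolytic cells, Slc16a3, was low at 0.75 CPM per kilobase in miR-335-5p cells at day 6 and 0.44 at day 3, and was not called. Lactate dehydrogenase A (Ldha), the main subunit here, was not called (log2 fold change -0.20 and -0.28). Lactate dehydrogenase B (Ldhb), the heart subunit, had 148, 224 and 208 CPM in miR-335-5p cells at day 6 and 86.5, 128 and 135 CPM at day 3, with no overlap, and missed the threshold (log2 fold change 0.73, adjusted p = 0.0216, and 0.60, adjusted p = 0.0498 in NT cells). With the replicate block Ldhb was called higher in both (adjusted p = 1.08e-06 and 5.26e-06).

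Of the 4 bifunctional enzymes that make and break down fructose 2,6-bisphosphate, the activator of phosphofructokinase, 1 fell and 1 rose. Pfkfb3, the isoform with the strongest kinase activity, had 20.7, 16.8 and 17.5 CPM in miR-335-5p cells at day 6, against 67.6, 49.2 and 49.8 CPM at day 3. The NT libraries held 18.6, 14.0 and 16.2 CPM at day 6 and 65.0, 43.7 and 45.2 CPM at day 3. Pfkfb3 thus fell 3.03-fold (adjusted p = 3.82e-05) and 3.16-fold (adjusted p = 2.89e-05). Pfkfb4, first described in testis and induced by hypoxia in many cells, had 27.1, 23.0 and 22.5 CPM in miR-335-5p cells at day 6 and 13.2, 11 and 12.1 CPM at day 3. In NT cells the values were 23.9, 21.0 and 20.2 CPM at day 6 and 14.1, 9.69 and 12.2 CPM at day 3. It rose by 1.00 on the log2 scale (adjusted p = 0.000192) and 0.85 (adjusted p = 0.000547). Pfkfb1 and Pfkfb2, the isoforms known best from liver and heart, were not called, nor were Tigar, a fructose 2,6-bisphosphatase, and Bpgm, which makes 2,3-bisphosphoglycerate; their fitted log2 fold changes lay between -0.28 and 0.48.

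The largest falls of all members were those of Pdk4, Mpc2 and Mpc1. All 4 members at pyruvate entry and pyruvate dehydrogenase fell under both mimics. The carrier works as a complex of Mpc1 and Mpc2, and both subunits fell. Mpc1 had 127, 109 and 105 CPM in miR-335-5p cells at day 6, against 363, 416 and 388 CPM at day 3. NT cells gave 110, 105 and 105 CPM at day 6 and 403, 449 and 368 CPM at day 3. The fall was 3.43-fold in miR-335-5p cells (95% interval of the log2 fold change -2.0 to -1.56, adjusted p = 2.06e-07) and 3.81-fold in NT cells (-2.15 to -1.71, adjusted p = 1.15e-07). Mpc2 had 43.8, 30.7 and 31.9 CPM in miR-335-5p cells at day 6, against 167, 153 and 160 CPM at day 3. The NT libraries held 37.7, 30.9 and 31.1 CPM at day 6 and 172, 177 and 162 CPM at day 3. Its fall was 4.52-fold (adjusted p = 3.53e-07) and 5.13-fold (adjusted p = 1.94e-07).

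The E1 subunits of pyruvate dehydrogenase moved less. Pdha1, the subunit that the kinases phosphorylate, had 365, 297 and 265 CPM in miR-335-5p cells at day 6 and 502, 513 and 501 CPM at day 3, and in NT cells 353, 273 and 265 CPM at day 6 and 510, 501 and 462 CPM at day 3. It fell 1.64-fold (adjusted p = 0.00097) and 1.65-fold (adjusted p = 0.000839). Pdhb, its partner, had 330, 237 and 227 CPM in miR-335-5p cells at day 6 and 480, 439 and 426 CPM at day 3, and in NT cells 314, 229 and 212 CPM at day 6 and 498, 463 and 392 CPM at day 3. It fell 1.69-fold (adjusted p = 0.00342) and 1.79-fold (adjusted p = 0.00183).

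Of the 4 pyruvate dehydrogenase kinases, 2 fell. Pdk4, known to be induced by fasting and glucocorticoids, had 31.5, 20.3 and 24.0 CPM in miR-335-5p cells at day 6, against 200, 164 and 244 CPM at day 3. In NT cells the values were 31.3, 21.8 and 20.4 CPM at day 6 and 217, 166 and 238 CPM at day 3. This was the largest fall among the members, 8.02-fold in miR-335-5p cells (95% interval of the log2 fold change -3.51 to -2.50, adjusted p = 2.28e-06) and 8.45-fold in NT cells (-3.58 to -2.57, adjusted p = 1.96e-06). Pdk2, the broadly expressed kinase, had 46.1, 38.4 and 36.3 CPM in miR-335-5p cells at day 6 and 96.7, 92.9 and 86.7 CPM at day 3, and in NT cells 46.0, 40.3 and 38.7 CPM at day 6 and 87.9, 96.8 and 87.6 CPM at day 3. It fell 2.29-fold (adjusted p = 5.25e-06) and 2.18-fold (adjusted p = 8.3e-06). The hypoxia-inducible kinase Pdk1, with the highest level per kilobase of the 4 (84.9 CPM per kilobase in miR-335-5p cells at day 6 and 78.8 at day 3), was not called (log2 fold change 0.11, interval -0.19 to 0.40, and -0.0030, interval -0.30 to 0.29). Pdk3 (-0.07 and -0.04) and the phosphatase Pdp1 (0.12 and 0.32) were not called.

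**Figure D3:**
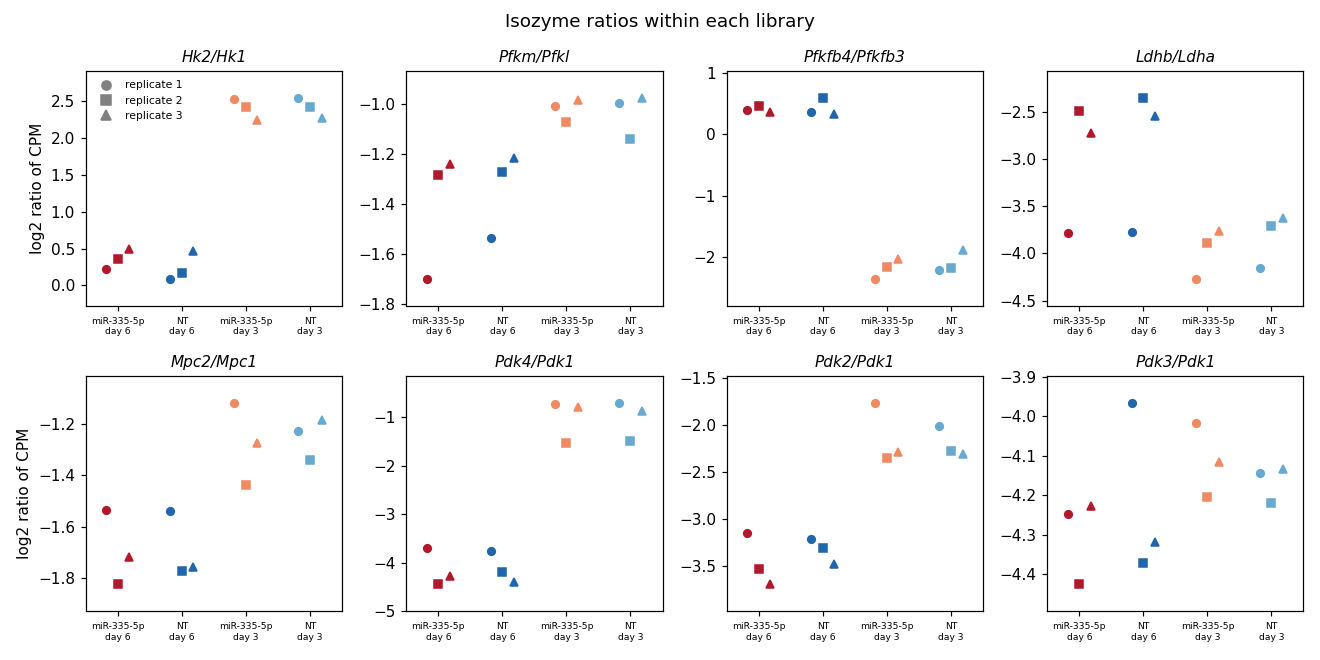
Log2 ratio of the CPM of 2 isozymes or partners within each library, 8 pairs, groups from left to right miR-335-5p day 6, NT day 6, miR-335-5p day 3 and NT day 3, with the symbol giving the replicate number (axes do not start at 0). The 6 day 6 libraries lie apart from the 6 day 3 libraries for Hk2/Hk1, Pfkfb4/Pfkfb3, Pdk4/Pdk1, Pdk2/Pdk1, Mpc2/Mpc1 and Pfkm/Pfkl, and overlap them for Ldhb/Ldha.

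Ratios of isozymes within a library need no scaling for depth or length when compared between days, and 13 pairs were compared. The days did not overlap under either mimic for 7 pairs, overlapped under both for 4 (Pfkp/Pfkl, Eno3/Eno1, Ldhb/Ldha and Slc16a3/Slc16a1) and were separated in miR-335-5p cells alone for 2 (Eno2/Eno1 and Pdk3/Pdk1). Among the 7, Aldoc/Aldoa rests on the few Aldoc counts given above and, where these were 0, on a small constant added to all counts. An exact two-sided permutation test of 3 libraries against 3 cannot give a p below 0.10, so that none of them can pass 0.05. The Hk2 to Hk1 ratio of CPM had a geometric mean of 1.28 in miR-335-5p cells at day 6 and 5.27 at day 3, and of 1.18 in NT cells at day 6 and 5.34 at day 3 (exact p = 0.1 in both). The Pfkfb4 to Pfkfb3 ratio of CPM was 1.32 in miR-335-5p cells at day 6, against 0.22 at day 3, and 1.34 in NT cells at day 6, against 0.24 at day 3 (exact p = 0.1 in both). Per kilobase Pfkfb3 remained the higher of the pair at day 6, with 8.26 CPM per kilobase beside 6.94 for Pfkfb4 in miR-335-5p cells and 7.33 beside 6.22 in NT cells. The Pdk4 to Pdk1 ratio differed by -3.13 and -3.09 on the log2 scale (exact p = 0.1 in both) and that of Pdk2 to Pdk1 by -1.32 and -1.13 (exact p = 0.1 in both). The 2 carrier subunits also moved unequally, with a difference of -0.41 and -0.44 in the log2 ratio of Mpc2 to Mpc1 (exact p = 0.1 in both). The ratio of Ldhb to Ldha overlapped between the days (differences of 0.97, exact p = 0.2, and 0.94, exact p = 0.3).

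Libraries that carry replicate number 1 stood apart for these genes. At day 6 the 2 libraries of number 1 lay above all 4 of numbers 2 and 3 for 25 of the 35 members (71.4%, where 28.3% of all tested genes did so) and below them for 3 (8.57%, where 30.8% did). At day 3 they lay above for 8 members (22.9%, where 22.3% did) and below for 17 (48.6%, where 20.8% did). The fall between the days was therefore smaller in number 1 for much of the pathway. Ldha had log2 ratios of day 6 to day 3 of 0.29 in number 1 and -0.59 and -0.41 in numbers 2 and 3 in miR-335-5p cells, and of 0.28, -0.73 and -0.55 in NT cells. Tpi1 had 0.37, -0.36 and -0.25 in miR-335-5p cells and 0.46, -0.43 and -0.25 in NT cells. Gapdh had -0.58, -1.35 and -0.89 in miR-335-5p cells and -0.39, -1.35 and -1.34 in NT cells, lower at day 6 in all 6. Without the 4 libraries of number 1, an alternative chosen after seeing the data, 20 members were called in miR-335-5p cells and 22 in NT cells, in place of 14 and 16, and the share of all tested genes called was also larger, 42.7% under either mimic.

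**Figure D4:**
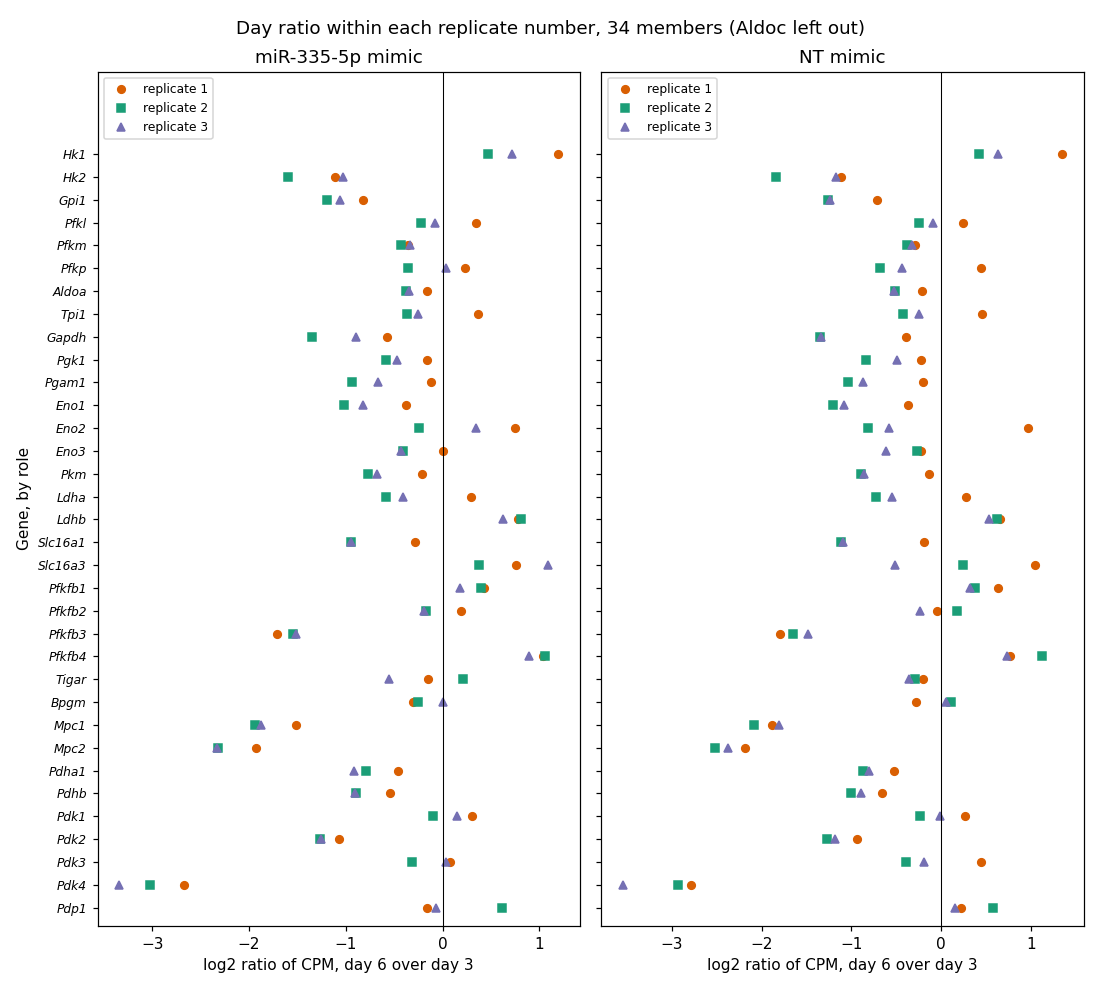
Log2 ratio of CPM of day 6 over day 3 within each replicate number for 34 members in order of their role, with miR-335-5p cells at left and NT cells at right. Number 1 (circles) lies to the right of numbers 2 and 3 for most glycolytic genes, on the other side of 0 for Pfkl, Tpi1 and Ldha under both mimics, while for Pfkfb3, Pfkm and Ldhb the 3 numbers lie close together. Aldoc is left out because of its 0 counts at day 3.

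Of the 14 members called in both day comparisons, 9 kept their calls under both mimics whichever of the 12 libraries was left out: Hk2, Gpi1, Pfkfb3, Pfkfb4, Mpc1, Mpc2, Pdha1, Pdk2 and Pdk4. Gapdh missed the threshold in NT cells without NT day 6 replicate 2 (adjusted p = 0.0103), and in miR-335-5p cells without its day 6 replicate 2 (adjusted p = 0.0138) or its day 3 replicate 2 (adjusted p = 0.0125). Pdhb missed it in NT cells without NT day 6 replicate 2 (adjusted p = 0.0102) and in miR-335-5p cells without its day 3 replicate 1 or 2 or its day 6 replicate 2 or 3 (adjusted p up to 0.0169). Slc16a1 missed it without replicate 2 or 3 of either day of the same mimic (adjusted p up to 0.0226 in miR-335-5p cells and 0.0139 in NT cells). Hk1 missed it in miR-335-5p cells without any one of their day 3 libraries, their day 6 replicate 1 or 3, or NT day 3 replicate 3 (adjusted p up to 0.0247), and in NT cells without any one of their day 3 libraries or day 6 replicate 1 (adjusted p up to 0.0213). Without day 6 replicate 1 of the same mimic its log2 fold change was 0.64 in miR-335-5p cells and 0.55 in NT cells. Pfkm missed it in miR-335-5p cells without their day 3 replicate 2 or 3 or day 6 replicate 1 or 2 (adjusted p up to 0.0181), and in NT cells without any one of their day 3 libraries, their day 6 replicate 1 or 2, or replicate 2 of the miR-335-5p cells at either day (adjusted p up to 0.0331). The calls of Pgk1 and Pgam1 in NT cells were lost without any one of their day 3 libraries or without their day 6 replicate 2 or 3, and that of Pgk1 also without miR-335-5p day 3 replicate 2 (adjusted p up to 0.0327 for Pgk1 and 0.0322 for Pgam1). Every one of these omissions kept the direction.

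Other genes of the pathway, 19 of 38 of which were tested, gave 2 calls higher and 5 lower under either mimic, with median log2 fold changes of -0.25 and -0.33. Of all tested genes, 34.7% were called in miR-335-5p cells and 35.6% in NT cells, so the share called in this list was near that of all genes. The 7 called genes were the same in both comparisons and are named here after their values were seen. The insulin-responsive glucose transporter Slc2a4 had log2 fold changes of 2.31 and 2.27, and the related transporter Slc2a8 had 0.72 and 0.75. Dlat (-0.68 and -0.75) and Dld (-0.47 and -0.54), the E2 and E3 subunits of the pyruvate dehydrogenase complex, fell as Pdha1 and Pdhb did. Pdpr (-0.55 and -0.40), a regulator of the pyruvate dehydrogenase phosphatase, Pcx (-0.87 and -0.96), which carboxylates pyruvate to oxaloacetate, and Pgam5 (-0.55 and -0.56), a mitochondrial phosphatase with a mutase name, fell too. A list of genes known to be induced by glucocorticoids, 13 of 14 of which were tested, gave 1 call higher and 8 lower in miR-335-5p cells and 1 higher and 7 lower in NT cells, and their summed level was 1210 to 1350 CPM at day 6 and 4230 to 5030 CPM at day 3. The list also holds Nr3c1, the gene of the receptor itself. It averaged 289 CPM at day 6 and 178 CPM at day 3 in miR-335-5p cells, and 290 and 188 CPM in NT cells. Hypoxia-inducible factor genes outside the members, all 24 tested, gave 2 higher (Adm and Car9) and 2 lower (Bnip3l and Egln2) in miR-335-5p cells, and 1 higher (Car9) and 3 lower (Bnip3, Bnip3l and Egln2) in NT cells. Genes known as PPAR targets, 13 of 14 tested, gave 3 higher under either mimic, and 2 lower in miR-335-5p cells and 1 in NT cells. Beside the share of all tested genes called, the PPAR list was near it, the hypoxia list below it and the glucocorticoid list above it. What part these regulators have in the members' changes was not tested.

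Hypoxia-inducible factors, MYC and carbohydrate response factors bind E-box-like elements, and the core ACGTG is common to the hypoxia response element and to CACGTG, which contains it. The window from 250 bases before to 50 bases after the first listed start site was available for 34 members (RefSeq, GRCm38.p6). ACGTG on either strand was present in 14 of these (41.2%), against 2453 of 9411 tested genes (26.1%) and 19.7% of all promoters in the table. The 3 windows below are those of members that fell under both mimics and held 2 copies, with each copy in capitals.
Hk2 (chr6:82774405-82774704, minus strand): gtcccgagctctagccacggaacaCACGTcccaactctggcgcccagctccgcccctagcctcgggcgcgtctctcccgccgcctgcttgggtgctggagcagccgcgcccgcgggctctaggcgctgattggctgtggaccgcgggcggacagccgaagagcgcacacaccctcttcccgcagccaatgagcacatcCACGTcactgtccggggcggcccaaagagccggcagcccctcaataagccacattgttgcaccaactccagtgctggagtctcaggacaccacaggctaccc
Pfkm (chr15:98092339-98092638, plus strand): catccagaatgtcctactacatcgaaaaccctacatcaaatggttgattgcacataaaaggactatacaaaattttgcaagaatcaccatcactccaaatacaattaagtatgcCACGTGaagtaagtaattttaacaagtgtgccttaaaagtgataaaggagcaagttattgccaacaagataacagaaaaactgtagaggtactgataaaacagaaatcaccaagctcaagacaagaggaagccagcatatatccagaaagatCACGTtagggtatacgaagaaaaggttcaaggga
Slc16a1 (chr3:104638414-104638713, plus strand): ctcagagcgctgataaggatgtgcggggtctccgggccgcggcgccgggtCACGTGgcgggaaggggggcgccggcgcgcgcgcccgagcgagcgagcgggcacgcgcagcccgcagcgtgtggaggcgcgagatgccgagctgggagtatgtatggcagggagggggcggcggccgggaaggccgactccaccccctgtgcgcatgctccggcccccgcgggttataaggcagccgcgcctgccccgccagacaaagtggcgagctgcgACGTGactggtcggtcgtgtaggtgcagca
Ldha, which was not called, held 3 copies in its first window. Among the members called under both mimics, Hk1, Gpi1, Pfkfb4, Mpc1, Mpc2, Pdha1 and Pdk4 held none in their first window. Pfkm has 4 listed start sites, and the windows of the later ones held 1, 0 and 0 copies. Which start site these cells use was not tested. These letters say nothing of binding in these cells.

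The mimics were compared at each day to ask whether miR-335-5p alters the transcriptome of differentiating cells. No member was called at day 6 or at day 3, nor in the test of the difference between the days, and of all 11703 tested genes 0% were called by edgeR. At an unadjusted p below 0.05 there were 21 genes at day 6 and 59 at day 3 (20 and 63 by DESeq2), none of them a member by either tool. The edgeR counts are far below 0.05 of the 11703 tests, the share that a calibrated test gives where no gene differs. The main fit leaves the pairing of replicate numbers out, so differences between the numbers enter its spread. When replicate numbers were blocked separately at each day, 593 genes had such a p at day 6, near that share. At day 3 there were 853, above it. Of these 593 and 853 genes, 4 and 2 were members. These were Pdp1, Eno1, Pfkfb3 and Aldoc at day 6 (edgeR unadjusted p = 0.0136 to 0.0316). At day 3 they were Ldhb (unadjusted p = 0.00186) and Eno3 (unadjusted p = 0.0405). In that fit no member was called, and 4 other genes were called lower at day 3 (0.0342% of those tested). Of the 35 members, 23 had a fitted value above 0 and 12 below at day 6, with a median log2 fold change of 0.04 (-0.0055 over all tested genes). At day 3, 8 lay above and 27 below, with a median of -0.03 (-0.0007 over all tested genes). Many members deviated together by replicate number, so these signs are not separate observations. No member's mimic groups were separated at either day, where 0.906% of all genes lay higher and 1.67% lower without overlap at day 6 and 2.09% and 2.14% at day 3.

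**Figure D5:**
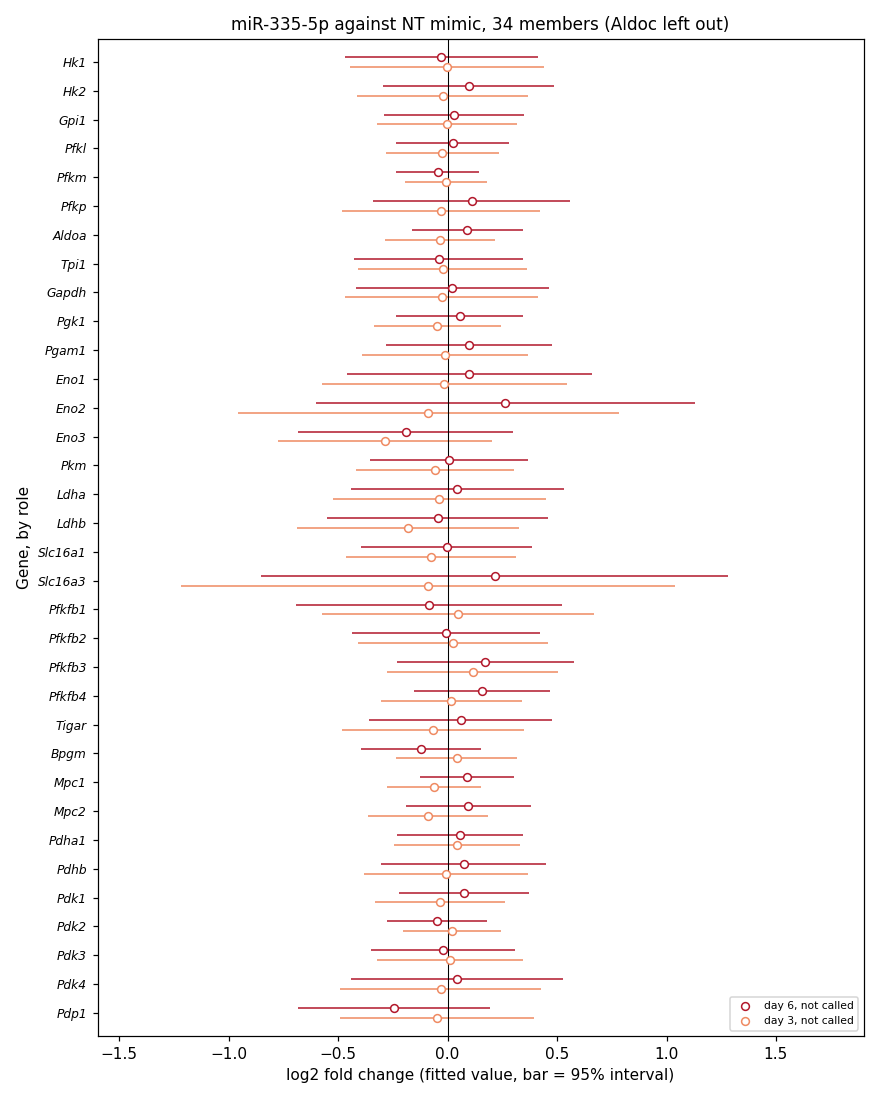
Fitted log2 fold change of miR-335-5p over NT mimic for 34 members in order of their role, upper dark marks at day 6 and lower light marks at day 3, with 95% intervals. Every interval, from the fit without a replicate block, includes 0, open marks stand for members not called, and Aldoc is left out because its counts were near 0.

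Aldoa and Pgk1 are the glycolytic genes that the study named at day 6 from these same samples, so that they are not independent evidence of a direction. Aldoa had 2490, 1986 and 2226 CPM in miR-335-5p cells at day 6, against 2401, 1876 and 2019 CPM in NT cells. The groups overlapped, although within each replicate number the miR-335-5p library was the higher at day 6 (3 of 3). At day 3 it was slightly lower in numbers 2 and 3 (log2 ratios -0.0592 and -0.0436) and level in number 1 (-0.000668). The fitted log2 fold change at day 6 was 0.09 (95% interval -0.16 to 0.34, edgeR adjusted p = 1), and with a block for the replicate number within each day the adjusted p was 0.995. Pgk1 had 5071, 4345 and 5076 CPM in miR-335-5p cells at day 6, against 5304, 3892 and 4752 CPM in NT cells, higher in 2 of 3 numbers. Its log2 fold change was 0.06 (-0.23 to 0.34, edgeR adjusted p = 1). It became -0.058 without NT day 6 replicate 2, which was the lowest of the 6 libraries.

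In the fit without a block, the lowest unadjusted p among the members at day 6 belonged to Pdp1, Pfkfb4 and Bpgm. Pdp1 had 11.5, 17 and 17 CPM in miR-335-5p cells and 15.4, 20.6 and 18 CPM in NT cells (log2 fold change -0.25, interval -0.69 to 0.19), lower in 3 of 3 numbers. Pfkfb4 had a log2 fold change of 0.16 (-0.15 to 0.47), higher in 3 of 3, from the day 6 levels given above. Bpgm had 13.5, 13 and 12.8 CPM in miR-335-5p cells and 12.6, 15.8 and 14.4 CPM in NT cells (-0.12, -0.40 to 0.15). All 3 had an adjusted p of 1 and overlapping groups.

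At day 3 the lowest p of the fit without a block belonged to Eno3, Ldhb and Mpc2. Eno3 had 3.97, 5.34 and 6.39 CPM in miR-335-5p cells and 5.00, 5.99 and 8.16 CPM in NT cells (log2 fold change -0.29, interval -0.77 to 0.20), lower in 3 of 3 numbers. Ldhb had 86.5, 128 and 135 CPM in miR-335-5p cells and 97.8, 151 and 147 CPM in NT cells (-0.18, -0.69 to 0.33), also lower in 3 of 3. Within the replicate block of day 3 Ldhb was not called (edgeR adjusted p = 0.332). Mpc2 had 167, 153 and 160 CPM in miR-335-5p cells and 172, 177 and 162 CPM in NT cells (-0.09, -0.36 to 0.19). Mpc1, the holder of the 8mer match to the miR-335-5p seed shown above, had a log2 fold change of 0.09 at day 6 (-0.13 to 0.30) and -0.06 at day 3 (-0.28 to 0.15), with overlapping groups at both days. In the fit without a block all members had an adjusted p of 1 in both mimic comparisons, and a p above the threshold does not show that the mimics act alike.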

How the data were processed

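Total RNA of 3T3-L1 cells was sequenced in 12 libraries and quantified by the authors. The deposited table holds estimated counts per gene that are not scaled for depth, and 3.369% of its values are not whole (tolerance 1e-06). HISAT2 2.2.1, RSEM 1.3.1 and mm39 are listed, without roles, in the submitters' processing notes. The annotation and the strand setting were not given in the sources used here. Estimated counts spread reads shared by isozymes or pseudogenes over their sources. Of 16414 IDs, 16393 matched a RefSeq table (GRCm38.p6), used for names only.

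Counts were rounded. Genes passing filterByExpr were scaled by TMM and tested in 1 robust quasi-likelihood fit of 4 group means (edgeR 4.0.16, R 4.3.3, checked on simulated data). The 5 comparisons were each adjusted by Benjamini-Hochberg with a threshold of 0.01, which is that of the study, where DESeq2 was used. DESeq2 1.42.0, RLE scaling, no filter, a replicate block, fits of 6 libraries, a threshold of 0.05 and the omission of each library were the alternatives. The fits without replicate 1, with library totals alone and by DESeq2 with the block were chosen after seeing the data. Intervals of 95% come from the quasi-likelihood standard error. Levels per kilobase divide the CPM by the length of the transcript with the longest coding region (GENCODE).

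The labels give the same replicate numbers to all groups. Deviations from group means correlated at 0.485 to 0.825 for the 6 pairs of equal number and day and at 0.253 to 0.541 for the 12 pairs of equal number across days, so the numbers were taken to pair the libraries, a hint from the data and not from the labels. The main fit, with its calls, intervals and order of p, leaves this pairing out. It enters the blocked alternatives and the ratios within each replicate number.

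The members, gene lists and isozyme pairs were chosen with earlier results of these data known. Values in every library are given for members called alike in both day comparisons, members called in 1 of them, Aldoa and Pgk1 in the day 6 mimic comparison, and the 3 members of lowest p in each mimic comparison; other members are given by fold change, range or count. Protein sequences and coordinates on mm39 were not used here.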

Additional observations from a re-analysis of the deposited data

How the results depend on the processing

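No member was called between the mimics at either day, or in the difference between the days, under any alternative that was run, the replicate blocks included. In the day comparisons the number of members called was 14 in miR-335-5p cells and 16 in NT cells. With the replicate number as a block, which the pairing of the libraries favours, it was 21 and 22, where 51.6% and 51.9% of all tested genes were called. The members gained by the block were Aldoa, Aldoc, Eno1, Pkm and Ldhb in both, Pgk1 and Pgam1 in miR-335-5p cells and Pfkfb1 in NT cells. Of these, Aldoc passed the filter only through its day 6 libraries. No member called without the block lost its call with it. The other counts were 14 and 16 with RLE size factors (34.8% and 35.6% of all tested genes), 19 and 19 by DESeq2 (31% and 31.4%), 14 and 17 without a filter (25.3% and 25.8%), and 13 and 12 with only the 6 libraries of the comparison (26.8% and 31.6%). At an adjusted p below 0.05 the counts were 20 and 21, and the share of all tested genes at that threshold was not computed. Among the settings chosen after seeing the data, the counts were 20 and 22 without replicate 1 (42.7% of all tested genes under either mimic) and 12 and 13 with library totals alone (34.7% and 35.6%). By DESeq2 with the block they were 21 and 22 (39.3% and 39.1% of the 15605 genes with any count). Without TMM factors the median log2 fold change of all genes became 0.18 and 0.20, beside 0.02 and 0.03 with them, and 2894 genes were called higher and 1162 lower in miR-335-5p cells (2135 and 1926 with TMM) and 3008 higher and 1160 lower in NT cells (2206 and 1957 with TMM). Leaving out 1 library at a time gave 9 to 18 in miR-335-5p cells and 10 to 18 in NT cells. The 9 came without miR-335-5p day 3 replicate 2, where the share of all tested genes called was also lower, at 25.9%. The 10 came without NT day 6 replicate 2, where that share was 26.5%. Pgk1 between the mimics at day 6, at 0.06, ranged from -0.058 (without NT day 6 replicate 2) to 0.16 (without NT day 6 replicate 1) when 1 library was left out. The TMM factors were 0.9245 to 0.9774 in the day 3 libraries and 1.038 to 1.083 in the day 6 libraries, and leaving them out moves the fold changes of all genes alike. The cause of the other shifts between settings was not tested.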
